A study of Mus musculus with 2 samples.

Results

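The 9 genes described here encode the microRNAs (miRNAs) best known from liver, gut, kidney and pancreas, measured in a skeletal muscle. They were found by their GENCODE M21 symbols, Mir122, Mir192, Mir194-1, Mir194-2, Mir215, Mir375, Mir216a, Mir216b and Mir217, among 2202 annotated miRNA genes. The muscle was gastrocnemius, in the calf, of adult females of B6CASTF1/J, an F1 hybrid of the C57BL/6 and CAST mouse strains, at an age of 18 to 20 months. MicroRNA-seq gave 2 libraries in 1 group, numbered as biological replicates 1 and 2 by the labels, with no treatment and no second condition. Both carry the same donor entry but separate tissue entries, so differences between them may be technical. The p-values below assume counting error only and do not measure the spread between libraries. All 9 genes had a row in both libraries, 6 had at least 1 count in either, and 3 (Mir215, Mir216a and Mir216b) had none.

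A miRNA is cut from a hairpin as a short RNA that guides Argonaute proteins to messenger RNAs, chiefly by pairing through its seed, bases 2 to 8. Several miRNAs of digestive organs are made almost wholly in 1 cell type. Mir122 is the dominant miRNA of hepatocytes. Mir192, Mir194 and Mir215 are abundant in intestinal epithelium, liver and kidney. Mir375 is a miRNA of pancreatic islet cells that restrains insulin secretion, and Mir216a, Mir216b and Mir217 mark the acinar cells of the exocrine pancreas.

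RefSeq entries on GRCm38.p6, the patch release of the mm10 assembly, held 8 of the 9 genes. The sequences below are shown because they set which members can be told apart by a short read. They run 5′ to 3′ with the seed in capitals.
mmu-miR-192-5p: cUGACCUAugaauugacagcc
mmu-miR-215-5p: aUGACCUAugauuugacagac
mmu-miR-194-5p: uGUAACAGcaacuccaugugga
mmu-miR-194-1-3p: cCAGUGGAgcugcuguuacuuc
mmu-miR-194-2-3p: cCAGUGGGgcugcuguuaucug
mmu-miR-216a-5p: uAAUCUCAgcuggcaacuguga
mmu-miR-216b-5p: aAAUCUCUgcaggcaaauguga
mmu-miR-217-5p: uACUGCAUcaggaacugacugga
For Mir375 the whole hairpin is given, with its annotated 5p arm in capitals. The entries used held no 3p arm for Mir375, so that arm is not marked. Counts are per gene and do not show which arm was read.
Mir375: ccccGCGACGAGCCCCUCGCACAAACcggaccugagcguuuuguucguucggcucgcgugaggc

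The seed of mmu-miR-192-5p, UGACCUA, is also that of mmu-miR-215-5p, and no other pair among the 14 mature names shared a seed. These names include no arm of Mir122 and no 3p arm of Mir375, whose seeds were not compared. Over 21 bases, counted from the 5′ end, the change from miR-192-5p to miR-215-5p is C1A, A12U and C20A. From miR-216a-5p to miR-216b-5p it is U1A, A8U, U11A and C17A over 22 bases, so A8U separates their seeds. mmu-miR-194-5p, in contrast, is the same 22 bases in the hairpins of Mir194-1 and Mir194-2. Their 3p arms differ, by A8G, C19U, U20C and C22G from the Mir194-1 arm to the Mir194-2 arm. Multimapping reads enter no gene count in these files, so the counts of Mir194-1 and Mir194-2 are lower bounds. None of the other 7 members shared more than 12 bases in a row with any other annotated miRNA hairpin, each read on its own strand. Reverse complements, such as that of Mir216c, which overlaps Mir216b on the opposite strand, were not searched. Copies elsewhere in the genome were not searched either.

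The members lay in 3 clusters and 2 single loci of mm10. Mir194-2 (ENSMUSG00000065582.1, chromosome 19, 6264643 to 6264728, plus strand) and Mir192 (ENSMUSG00000065523.1, 6264844 to 6264932, plus strand) were 115 bases apart and lay between Atg2a and Gm14963, outside both. Mir194-1 (ENSMUSG00000065581.1, chromosome 1, 185313319 to 185313385, plus strand) lay 195 bases before Mir215 (ENSMUSG00000065562.1, 185313581 to 185313692, plus strand). Both lay opposite an intron of Iars2; along the noncoding RNA 2010103J01Rik, Mir194-1 was intronic and Mir215 exonic. Mir216b (ENSMUSG00000076318.1, chromosome 11, 28746191 to 28746276), Mir216a (ENSMUSG00000065539.1, 28757012 to 28757083) and Mir217 (ENSMUSG00000065415.1, 28763728 to 28763835) followed each other on the plus strand. The last pair lay in introns of the noncoding RNA Gm12082, and Mir216b faced Mir216c, another miRNA gene. Mir375 (ENSMUSG00000065616.3, chromosome 1, 74900658 to 74900721, minus strand) lay between Cryba2 and Cfap65.

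The counts came from unequal libraries. Replicate 1 held 865419 sense counts on miRNA genes and replicate 2 held 2177048, while 80.7% and 71.0% of all reads were multimapping and outside the gene counts. Levels are given as CPM, the counts of a gene scaled to 1000000 gene counts of its library, with SD over both libraries (n = 2). The limit that a count of 0 allows, 3 counts, is 3.47 CPM for replicate 1 and, with its greater depth, 1.38 CPM for replicate 2. Intervals and these limits cover counting error only, since reads, not molecules, were counted. Muscle markers were present: the 7 striated muscle genes held 4.07% of gene counts in replicate 1 and 10.4% in replicate 2, led by Mir206, with Mir1a-2 next. Mir1a and Mir133a each have paired gene copies with the same mature miRNA, whose shared reads are multimapping and not in these shares.

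Gut and islet miRNAs were detected at low levels, and acinar miRNAs were at or near 0. The hepatocyte miRNA Mir122 was clearly detected in replicate 2 only. In replicate 1 its 9 sense counts stood beside 5 antisense counts. Together the 9 genes held 87 counts in replicate 1, a share of gene counts of 0.0101% (Clopper-Pearson limits 0.00805 and 0.0124). The same genes held 422 counts in replicate 2, a share of 0.0194% (0.0176 and 0.0213). By mean level the order was Mir122 (52.7 ± 59.9 CPM), Mir375 (40.3 ± 4.71 CPM), Mir192 (27.2 ± 7.29 CPM), Mir194-2 (25.3 ± 9.66 CPM), Mir217 (1.04 ± 0.167 CPM) and Mir194-1 (0.578 ± 0.817 CPM). The first place of Mir122 rests on replicate 2: in replicate 1 it was the lowest of the leading 4, at 10.4 CPM against 18.5 CPM or more. Mir122 and Mir375 did not differ beyond the spread of Mir122, nor did Mir192 and Mir194-2 beyond theirs, and the place of Mir194-2 uses a count that is a lower bound. Mir375 stood to Mir192 as 1.14 to 1 in replicate 1 (exact interval 0.667 to 1.97) and as 1.98 to 1 in replicate 2 (1.38 to 2.86), so they were told apart in replicate 2 alone. A read covers about 1 mature miRNA, so counts were not divided by length. Per kilobase of hairpin the first 4 kept that order, at means of 799, 630, 306 and 294 CPM. In bulk tissue, fewer cells of a type and less RNA per cell cannot be told apart.

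**Figure D1:**
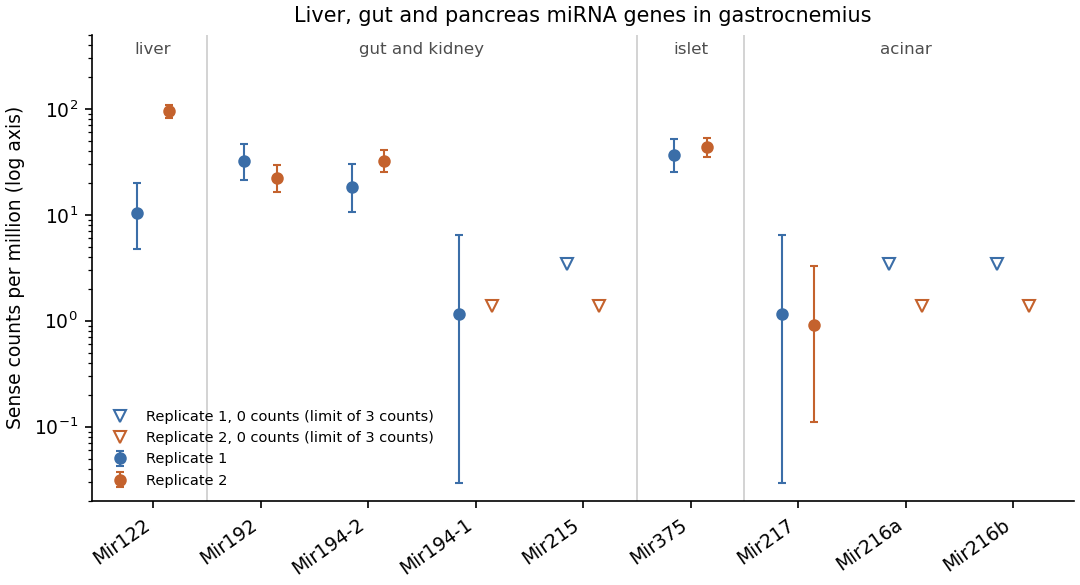
Sense counts in CPM (log axis) of the 9 genes in replicate 1 (blue) and replicate 2 (orange), with exact Poisson 95% intervals of the count; open triangles mark 0 counts, drawn at the limit of 3 counts. Mir122 stands at 10.4 CPM in the first library and at 95.1 CPM in the second, while both libraries lie close together for Mir375, and the acinar genes sit at or below the limits.

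Mir122, the hepatocyte miRNA, was the member that differed most between the libraries. It lies on the plus strand of chromosome 18 (ENSMUSG00000065402.1, 65248861 to 65248926), within an exon of AC157910.3, a long noncoding RNA. Its sense counts were 9 in replicate 1 and 207 in replicate 2. These put it at 10.4 CPM (Poisson interval 4.76 to 19.7) and 95.1 CPM (82.6 to 109), intervals that did not overlap. It ranked 249 among all miRNA genes in replicate 1 and 157 in replicate 2. The ratio of replicate 2 to replicate 1 was 9.14 (4.72 to 20.3), with an adjusted p of 2.02e-19 by the exact conditional binomial test, which compares the reads of these 2 libraries and not animals or conditions. Over 305 tested genes, 11 had a higher ratio than Mir122.

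Mir122 was also the only member called between the libraries, a call being an adjusted p under 0.05 with a ratio of at least 2. The filter, a mean of at least 10 counts, passed 4 members: Mir122, Mir375, Mir192 and Mir194-2. Of all 305 genes that passed it, 33.8% were called in either direction and 26.9% were called higher in replicate 2. A count of 1 in 4 members is near that background and shows nothing about the members as a group. The median gene lay above equality, at a log2 ratio of 0.43. With TMM scaling, which lowers every log2 ratio by 0.28, Mir122 stayed called at a ratio of 7.52, beside 21.6% of genes called higher in replicate 2. With DESeq2 size factors, which lower it by 0.42, its ratio was 6.84, beside 19% of genes.

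Mir122 was also set against other genes, which needs no scaling between libraries. The direction was given beforehand, since Mir122 had the highest ratio of the genes compared, so these values show size only. In replicate 1 there were 0.281 Mir122 counts for each Mir375 count (exact interval 0.118 to 0.603), and in replicate 2 there were 2.18 (1.70 to 2.81). The ratio of these ratios was 7.70 (3.42 to 19.1). It was 13.3 against Mir192 (5.64 to 34.1), 5.22 against Mir194-2 (2.07 to 14.1) and 7.06 against the red blood cell miRNA Mir451a (3.54 to 16.0). Against Mir206, the striated muscle gene with the most uniquely mapped counts, itself higher in replicate 2, it was 3.58 (1.85 to 7.93). Mir206 outnumbered Mir122 by 3884 to 1 in replicate 1 and by 1086 to 1 in replicate 2.

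**Figure D2:**
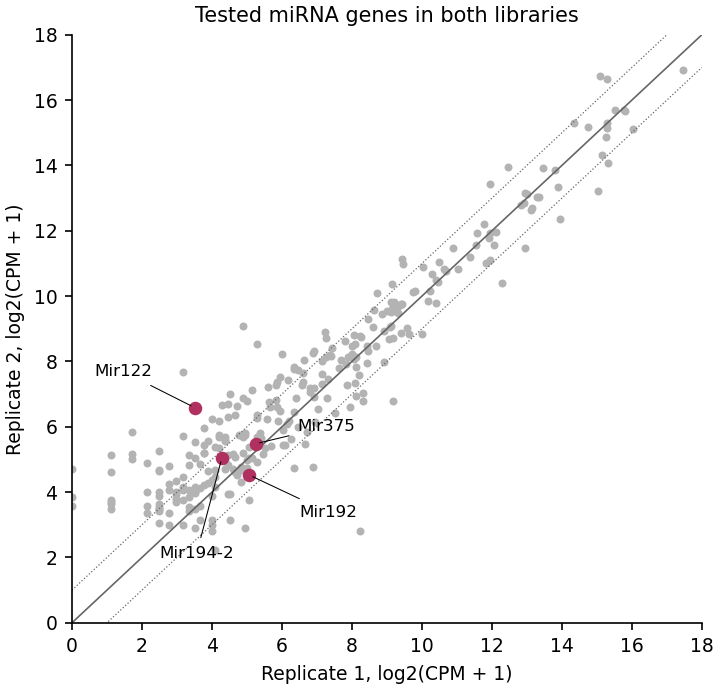
Level of each of the 305 tested miRNA genes, as log2(CPM + 1), in replicate 1 (horizontal) and replicate 2 (vertical); the solid line marks equal values and the dotted lines a difference of 1 on this scale. Mir122 lies above the upper dotted line, and Mir375, Mir192 and Mir194-2 lie within the dotted lines.

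Mir375, the islet miRNA, had the ratio nearest to 1 of the 4 tested members. It had 32 counts in replicate 1, which is 37.0 CPM (Poisson interval 25.3 to 52.2), and 95 in replicate 2, which is 43.6 CPM (35.3 to 53.3). The intervals overlapped. Its ratio of 1.18 (0.783 to 1.82) was not called (adjusted p = 0.547 by the exact conditional binomial test) and fell below equality with TMM (0.970) and with DESeq2 size factors (0.883). No read of Mir375 was antisense in either library.

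The gut and kidney pair of chromosome 19 stood in opposite order in the libraries, each time within counting error. Mir192, whose known targets include Zeb transcription factors, had 28 counts (32.4 CPM, Poisson interval 21.5 to 46.8) in replicate 1 and 48 (22.0 CPM, 16.3 to 29.2) in replicate 2. Its neighbour Mir194-2 had 16 counts (18.5 CPM, 10.6 to 30.0) and 70 (32.2 CPM, 25.1 to 40.6). For each gene the intervals of both libraries overlapped.

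Neither gene was called. Mir192 had a ratio of 0.681 (0.419 to 1.13, adjusted p = 0.169) and Mir194-2 a ratio of 1.74 (1.00 to 3.21, adjusted p = 0.062), both by the exact conditional binomial test. With TMM scaling Mir192 stood at 0.560 (0.344 to 0.927), at an adjusted p of 0.0278 by that exact test. With DESeq2 size factors it reached 0.510 at an adjusted p of 0.0113 by that exact test, just short of the 2-fold threshold. Only that threshold kept Mir192 uncalled with these scalings. Within a library, Mir192 stood to Mir194-2 as 1.75 to 1 in replicate 1 (exact interval 0.915 to 3.46) and as 0.686 to 1 in replicate 2 (0.465 to 1.00). The ratio of Mir194-2 between the libraries was 2.54 times that of Mir192 (1.18 to 5.61), an interval not adjusted over the 8 such ratios computed. The summed gut and kidney counts hardly moved, from 52.0 CPM to 54.2 CPM.

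The chromosome 1 pair was almost without counts, although its miR-194-5p is identical to that of chromosome 19. Mir194-1 had 1 sense count in replicate 1 and 0 in replicate 2, where 1 antisense count was recorded. Mir215, the partner of Mir192 by seed, had 0 counts on either strand in both libraries, below the limits given above. Mir194-2 outnumbered Mir194-1 by 16 to 1 in replicate 1 (exact interval 2.49 to 671). In replicate 2 the ratio was 23.3 with Mir194-1 set at the floor of 3 counts. The lower limit of the exact interval there was 18.5. Reads of the shared miR-194-5p are multimapping, so these ratios rest on reads that map to a single hairpin and say nothing of how the shared 5p arm divides between the loci.

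The exocrine pancreas group held 3 counts in all, every one in Mir217. Mir217 had 1 count in replicate 1 (1.16 CPM, Poisson interval 0.0293 to 6.44) and 2 in replicate 2 (0.919 CPM, 0.111 to 3.32). Mir216a and Mir216b had 0 counts on both strands in both libraries, and so did Mir216c, which faces Mir216b. At this depth no gene of the group had a count above the limit of 3.

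The makeup of the members' uniquely mapped counts differed between the libraries, which largely restates the Mir122 ratio. A share falls when another gene rises. In level, the gut and kidney genes went from 52.0 to 54.2 CPM and Mir375 from 37.0 to 43.6 CPM. Reads of miR-194-5p are outside these counts, so the gut and kidney share is a lower bound of unknown size and the shares give no order of the organs. Mir192, Mir194 and Mir215 are abundant in liver too, so the group name does not set their counts apart from liver. In replicate 1 the gut and kidney genes held 51.7% of the members' counts (40.8 to 62.6, Clopper-Pearson), Mir375 held 36.8% (26.7 to 47.8) and Mir122 held 10.3% (4.84 to 18.7). In replicate 2 Mir122 held 49.1% (44.2 to 53.9), the gut and kidney genes 28.0% (23.7 to 32.5) and Mir375 22.5% (18.6 to 26.8). The exocrine group held 1.15% and 0.474%. Without Mir122 the other members summed to 90.1 CPM and 98.8 CPM, a ratio of 1.10, against 1.93 with it.

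**Figure D3:**
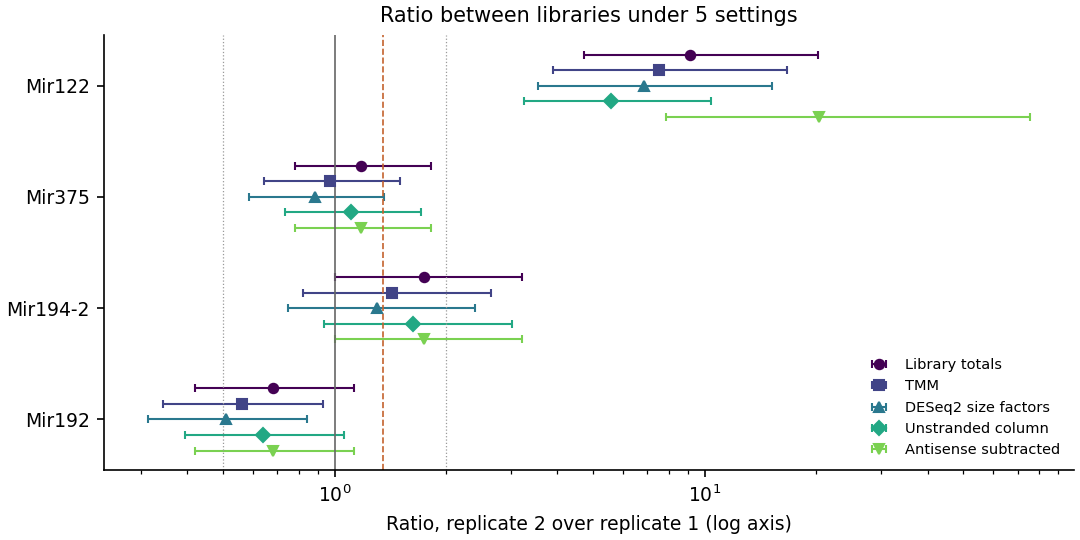
Ratio of replicate 2 to replicate 1 (log axis) of the 4 tested members under 5 settings, with exact 95% intervals; the solid line marks 1, the dotted lines a 2-fold difference and the dashed line the median of all tested genes with library totals. The Mir122 intervals lie above 2 in every setting drawn, from a ratio of 5.57 with the unstranded column to 20.4 with antisense counts subtracted, while those of Mir375 and Mir194-2 reach 1 or below. Those of Mir192 lie below 1 with TMM and DESeq2 size factors and include 1 in the other settings drawn.

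Antisense counts, the reads on the other strand of a hairpin, gave the background of assignment. Over the 2138 miRNA genes with no miRNA gene opposite them, 21 antisense counts were recorded in replicate 1 and 52 in replicate 2, or 0.00326% and 0.00301% of the counts on both strands. Mir192, Mir194-2, Mir375 and Mir217 had none in either library. Mir122 had 5 in replicate 1 and 2 in replicate 2. The antisense share of its reads was 35.7% in replicate 1 (12.8 to 64.9 by the Clopper-Pearson method) and 0.957% in replicate 2 (0.116 to 3.41), intervals that did not overlap. The interval of replicate 1 includes equal counts on both strands, so there the 9 sense counts of Mir122 were not told apart from its antisense counts. In replicate 1 Mir122 alone held 23.8% of all such antisense counts.

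The Mir122 ratio was recomputed with other uses of the strands. In the unstranded column Mir122 had 14 and 209 counts, the sum of its strands, and the ratio was 5.57 (3.25 to 10.4). That column also has smaller library totals (644072 and 1726574), and with it Mir375, which has no antisense count, moved from 1.18 to 1.11. Subtracting antisense from sense counts gave 20.4 (7.84 to 75.5). Mir122 was called, higher in replicate 2, in both cases.

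**Figure D4:**
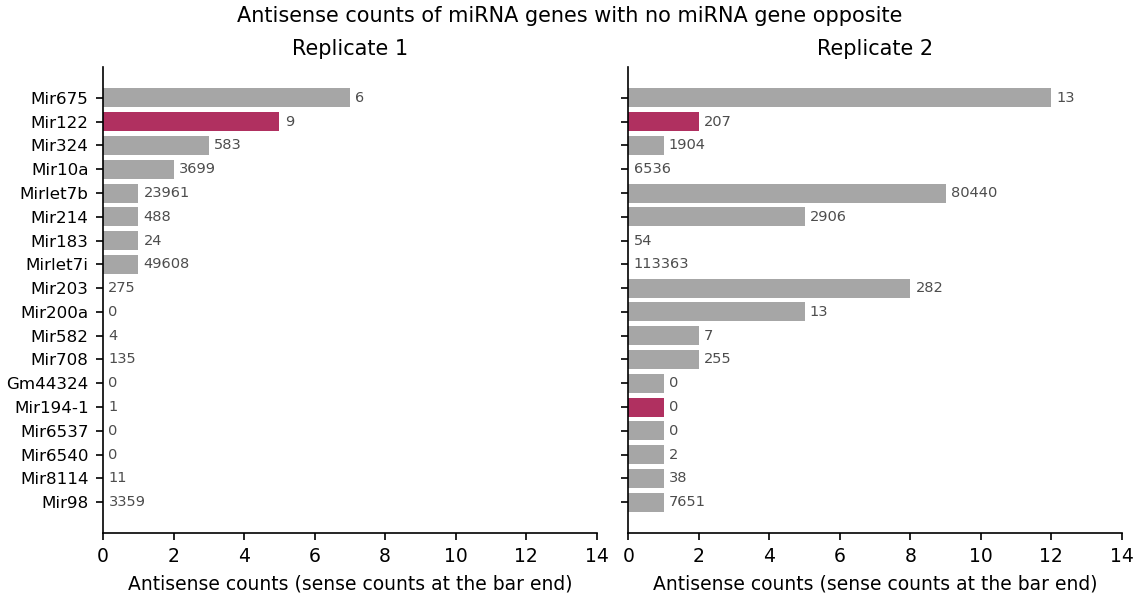
Antisense counts (bars, from 0) of the 18 miRNA genes that have any and face no other miRNA gene, in replicate 1 (left) and replicate 2 (right); the number at each bar end is the gene's sense count, and members are in red. Mir122 shows 5 antisense beside 9 sense counts in replicate 1 and 2 beside 207 in replicate 2.

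A wider list of 7 genes known from liver, gut or islets held 826 CPM in replicate 1 and 1272 CPM in replicate 2, and was led by Mir101b and Mir483. Mir101b stood at 590 and 908 CPM, a ratio of 1.54, and so made up most of both sums. The sums therefore do not give a level for liver, gut or islet miRNAs as a group. Whether Mir101b is specific to these organs was not tested. Mir483, which lies in Igf2, stood at 110 and 133 CPM, a ratio of 1.21. Of the 5 tested genes of the list 1 was called, higher in replicate 2. The median log2 ratio of the 5 was 0.62 against 0.43 over all tested genes. A count of 1 in 5 is near the 26.9% of all tested genes called in that direction. The ratio was above 1 for 4 of the 5, among them Mir148a at 1.95 (adjusted p = 5.48e-05 by the exact conditional binomial test), just under the ratio threshold. The called gene was Mir7b, known from islets and brain, with 2 and 123 counts. Mir802, a miRNA of liver and pancreas, had 0 counts in both libraries; Mir148a, Mir7b and Mir802 are named with their values in view.

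Markers of other cells were called in both directions, beside 33.8% of all tested genes called in either direction and 26.9% called higher in replicate 2. The leukocyte and striated muscle counts given next, 2 of 6 each, are near the share called in either direction. By direction, 21 of the 305 tested genes were called lower in replicate 2, the direction of both leukocyte calls. No test of a list against these shares was run. Of 10 epithelial genes 7 were tested. Replicate 2 was called higher for 4 of them (Mir200b, Mir200c, Mir429 and Mir205) and lower for 1, Mir203. A count of 4 in 7 is above the 26.9% called in that direction, a difference that was not tested. The list summed to 403 CPM in replicate 1 against 326 CPM in the other library. That fall came from Mir203, at 318 and 130 CPM. Mir200a and Mir141 were at 0 in replicate 1. Neither of the 2 erythroid genes was called, at 230 and 316 CPM together. Both were higher in replicate 2 but under the ratio threshold, Mir144 just so at 1.97 and Mir451a at 1.29. Their adjusted p-values were 0.00399 and 0.00465 by the exact conditional binomial test. The 6 leukocyte genes summed to 4442 and 4930 CPM, and Mir142 and Mir223 were called lower in replicate 2. The other 4 leukocyte genes were not called and had ratios above 1, from 1.02 (Mir146) to 1.48 (Mir155). Both slow fibre genes, Mir208b and Mir499, were called higher in replicate 2, at 181 and 956 CPM together. Of 6 tested striated muscle genes, Mir206 and Mir208a (1 and 74 counts) were called higher there. Mir1a-2, next to Mir206 in level, went the other way, at 270 and 162 CPM. Its adjusted p was 8.47e-09 by the exact conditional binomial test, but the fall was under 2-fold and not called. Mir1a-1 was also lower in replicate 2, and Mir133a-1 and Mir133b were higher, none of them called. The 6 neural genes had 1 and 5 counts, and 4 of them, Mir9-2 and the 3 Mir124a genes, were at 0 in both libraries. Beyond the leading 2 of each list, names were chosen with the values in view. The part of any of these in the Mir122 difference was not tested.

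The genes nearest to each tested member in level, by Euclidean distance of log2(CPM + 1) over both libraries, were counted at similar values. Nearest to Mir122 were Mir381 (13 and 162 counts, distance 0.60) and Mir1983 (11 and 133 counts, distance 0.68). Mir375 lay nearest to Mir431 (32 and 88 counts, 0.11) and Mir503 (28 and 88 counts, 0.22). Mir192 was close to Mir296 (27 and 49 counts, 0.06) and Mir365-2 (27 and 56 counts, 0.22). Mir194-2 was close to mmu-mir-3535 (17 and 65 counts, 0.13) and Mir542 (18 and 74 counts, 0.18). With 2 libraries, this describes like levels and nothing more.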

How the data were processed

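Per the labels, total RNA of size below 30 bases from gastrocnemius was sequenced as 2 libraries. The authors deposited read counts for each miRNA gene, without normalization, on mm10 with GENCODE M21 per the deposited README. Aligner, counter and trimming: not given in the sources used here. The files name no columns, and the values fit unstranded, sense and antisense counts in that order. The sense column was used, and 4 tally rows (87.4% and 81.9% of reads) stayed out of totals. All 2202 identifiers matched the annotation, which gave symbols and positions.

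With 1 group, no test between conditions exists. For each gene with a mean of at least 10 counts, the reads of the libraries were compared by an exact conditional binomial test (two-sided), and p-values were adjusted by the Benjamini-Hochberg method over all 305 such genes. Intervals are at 95%. TMM (edgeR 4.0.16) and DESeq2 1.42.0 size factors were alternatives, computed on the same genes. Analyses used R 4.3.3, Python 3.11.15, NumPy 2.4.6, SciPy 1.17.1 and pandas 2.3.3, and the code of the test was run on simulated counts. Those had Poisson counting error only, as the test assumes, so the run says nothing of further spread between libraries. The members and lists were chosen with earlier results of these data known. The rule for named genes was all 9 members, at most the 2 genes of highest mean CPM in each other list, the 2 genes nearest in level to a tested member, and genes within 10 kb; further list genes were named with their values in view. Ratios between members and the subtraction of antisense counts were added after the data were seen. Annotated symbols Mir7-1, Mir7-2, Mir142 and Mir146 stand for Mir7a-1, Mir7a-2, Mir142a and Mir146a.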

Additional observations from a re-analysis of the deposited data

Results flagged for a closer look

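Antisense counts, which enter none of the levels, stood above the limit of 3 counts for Mir122 in replicate 1, at 5. No other member passed that limit in either library. Among genes with no miRNA gene opposite, 2 passed it in replicate 1 and 5 in replicate 2. The cause was not tested.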

How the results depend on the processing

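No paired analysis was possible because the series has a single group. Mir122 stayed called in all 8 alternatives run, at ratios from 5.57 to 20.4 and adjusted p from 1.03e-23 to 1.31e-13 by the exact binomial test. Changing the filter or dropping the ratio threshold left its counts and the totals as they were. Its ratio there stayed at 9.14, so these settings do not probe it. Mir375, Mir192 and Mir194-2 were called in none of 7. With TMM and with DESeq2 size factors, Mir192 was kept uncalled by the ratio threshold alone. The setting without that threshold used library totals only. Mir375 turned below equality with TMM (log2 ratio -0.044) and DESeq2 size factors (-0.18); these shift every log2 ratio by the same amount. The 103 called genes became 50 with a mean of at least 100 counts, where 170 genes were tested, and 207 without the ratio threshold. The share of calls higher in replicate 2 was 79.6%, against 67.3% with TMM and 59.8% with DESeq2 size factors. The members' summed share fell from 0.0147% to 0.00239% with all reads as the denominator. Leaving out a library gives no ratio between libraries. It moved the summed share between 0.0101% and 0.0194%, and Mir122 between 10.4 and 95.1 CPM. Ratios of Mir194-1 to Mir215 and of Mir217 or Mir216a to Mir216b had a denominator of 0 and were not computed. Depth limits the members at 0 to 3 counts.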

Other observations

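Some genes with high sense counts had few antisense counts, and some with low sense counts had as many or more; the relation over all genes was not tested. Mirlet7i had 49608 sense and 1 antisense count in replicate 1, and Mirlet7b had 80440 and 9 in replicate 2. Mir675, the miRNA of the H19 RNA, had 6 sense and 7 antisense counts in replicate 1 and 13 and 12 in replicate 2. In replicate 2, Mir200a had 13 sense and 5 antisense counts and Mir203 had 282 and 8, while neither had antisense counts in replicate 1. These genes were named after their values were seen.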
